A study of Mus musculus with 10 samples.

Results

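A set of 10 genes of fatty acid uptake, binding and storage was followed in lung RNA of mice fed 2 high-fat diets. The members were fixed by gene symbol: Fabp4, Fabp5, Cd36, Lpl, Gpihbp1, Pparg, Plin2, Adipoq, Lipe and Pnpla2, 10 of the 24059 symbols in the count table. All 10 symbols were in the table, and 9 of them had a count in at least 1 mouse. Fabp4, Lpl and Pparg were chosen by their patterns in these same counts, so their differences between the diets are given as a description without a test. The other 7 were listed for their function, though with earlier results of these data known.

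Female C57Bl/6 mice, 14 weeks old, received for 8 weeks a semipurified diet with 19% fat and 0.2% cholesterol by weight, and whole lung was taken after pulmonary function testing and flushing with PBS. In the FO group (5 mice) 91% of the fat was menhaden fish oil and 9% corn oil, and in the CO group (5 mice) coconut oil gave 78% as saturated fat, olive oil 13% as monounsaturated fat and corn oil the remaining 9%, as the series' design text gives it. Both groups therefore ate a high-fat, cholesterol-containing diet, and no group on a standard diet was analysed here. The paper's supplement lists less cholesterol for the FO diet than for the CO diet, and its methods give slightly different fat shares for the CO diet. The comparison asks whether fish oil in place of coconut oil changes the RNA of these genes in the lung.

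Fatty acids reach lung cells from circulating triglyceride, which is cut by lipoprotein lipase (Lpl) held on the capillary wall by its anchor Gpihbp1, and enter cells with the help of the scavenger receptor Cd36. Inside the cell they are carried by fatty acid binding proteins such as Fabp4 and Fabp5, stored in lipid droplets coated by perilipin 2 (Plin2) and released again by the lipases Pnpla2 and Lipe. The nuclear receptor PPAR gamma (Pparg) binds fatty acids and drives many of these genes in fat cells and in alveolar macrophages. Adipoq, the hormone adiponectin, is made by fat cells. In lung, Cd36, Fabp4 and Gpihbp1 are known from capillary endothelium, and Lpl, Fabp4, Fabp5, Plin2 and Pparg from alveolar macrophages.

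The genes lie on 8 chromosomes in mm10 (GENCODE positions on GRCm38). Fabp4 (chromosome 3, 10204088 to 10208576, minus strand) and Fabp5 (10012548 to 10016607, plus strand) lie on the same chromosome. Lpl spans 68880491 to 68907448 on chromosome 8, Cd36 spans 17781690 to 17888801 on chromosome 5 and Pparg spans 115360951 to 115490399 on chromosome 6. Plin2 is on chromosome 4, Adipoq on chromosome 16, Lipe and Pnpla2 on chromosome 7 and Gpihbp1 on chromosome 15 (75596628 to 75599481). Exons of Lipe share 918 bases with those of the antisense gene 4732471J01Rik, so reads of these 2 genes could not be told apart without strand. The exons of the other 9 members overlap no other annotated gene.

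Promoter sequence was available here for 6 of the 10 members, in 9 windows of 300 bases, each with 250 bases before and 50 after an annotated start (RefSeq, GRCm38.p6). They are shown for Cd36, Plin2 and Pparg because PPAR gamma acts with its partner RXR on repeats of the hexamer AGGTCA, and because Pparg has 3 listed starts whose transcripts the gene-level counts add together. Capitals mark AGGTCA or its reverse complement, the only letters searched for the hexamer, on either strand.
Cd36, chr5:17835847-17836146, minus strand: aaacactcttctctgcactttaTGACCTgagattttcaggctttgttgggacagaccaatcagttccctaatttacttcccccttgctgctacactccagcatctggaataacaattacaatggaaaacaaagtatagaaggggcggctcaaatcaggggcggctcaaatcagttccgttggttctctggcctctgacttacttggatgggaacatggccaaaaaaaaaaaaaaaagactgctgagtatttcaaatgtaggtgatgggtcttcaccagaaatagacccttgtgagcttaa
Plin2, chr4:86670010-86670309, minus strand: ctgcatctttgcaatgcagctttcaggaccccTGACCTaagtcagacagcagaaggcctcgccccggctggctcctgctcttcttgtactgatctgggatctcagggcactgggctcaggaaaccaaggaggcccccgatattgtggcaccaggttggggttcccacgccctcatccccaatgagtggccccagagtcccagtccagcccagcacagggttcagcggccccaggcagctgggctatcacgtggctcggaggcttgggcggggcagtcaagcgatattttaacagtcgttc
Pparg window 1, chr6:115360894-115361193, plus strand: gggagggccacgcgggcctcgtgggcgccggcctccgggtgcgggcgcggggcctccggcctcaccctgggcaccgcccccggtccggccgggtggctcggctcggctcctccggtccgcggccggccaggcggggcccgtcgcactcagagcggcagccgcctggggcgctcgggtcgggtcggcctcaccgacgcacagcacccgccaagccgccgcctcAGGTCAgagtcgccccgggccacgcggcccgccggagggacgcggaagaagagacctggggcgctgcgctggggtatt
Pparg window 2, chr6:115362099-115362398, plus strand: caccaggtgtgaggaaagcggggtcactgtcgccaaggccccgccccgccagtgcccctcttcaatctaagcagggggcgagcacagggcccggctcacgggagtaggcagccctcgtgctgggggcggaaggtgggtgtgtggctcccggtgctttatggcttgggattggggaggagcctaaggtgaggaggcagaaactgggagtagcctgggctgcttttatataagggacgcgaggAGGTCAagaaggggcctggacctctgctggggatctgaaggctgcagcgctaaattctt
Pparg window 3, chr6:115421816-115422115, plus strand: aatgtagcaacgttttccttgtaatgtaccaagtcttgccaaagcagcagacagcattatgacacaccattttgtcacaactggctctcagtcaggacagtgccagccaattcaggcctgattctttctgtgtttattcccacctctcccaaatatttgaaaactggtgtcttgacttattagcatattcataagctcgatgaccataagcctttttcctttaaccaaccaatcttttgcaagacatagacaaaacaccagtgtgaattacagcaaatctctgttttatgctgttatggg
The hexamer occurred once in each of 4 of the 9 member windows: Cd36, Plin2 and Pparg windows 1 and 2. Relative to the start, its first printed base was at -228 in Cd36, at -218 in Plin2, and at -28 and -9 in windows 1 and 2 of Pparg. Of all 32851 promoter windows in the table, 16.3% held the hexamer. The direct repeat of that hexamer with 1 base of any kind between the copies (DR1, either strand) was in 0 of the 9 windows and in 0.0396% of all windows, which says only that these letters are not in these 300 bases. The first Pparg window was 80.3% G and C with 44 CpG, and the third was 40.3% G and C with 2 CpG. Windows of the remaining members are not shown, and Fabp4, Fabp5, Lpl and Gpihbp1 had no entry.

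The libraries were shallow and uneven. Totals ranged from 229766 to 1124963 counts, of which Rn45s, the precursor of ribosomal RNA, took 21.8% to 87.0%, leaving 45177 to 473254 counts for all other genes. Levels are given as CPM, counts relative to the library size scaled by TMM, and 1 count stood for 0.764 CPM in the deepest and 6.65 CPM in the shallowest library, with scaling over the genes that passed the filter. In a single mouse, 3 counts were used as a floor. FO mouse 2 and CO mouse 5 stood apart in Malat1, a long nuclear RNA, with 8.53% and 6.15% of counts outside Rn45s against at most 1.05% in the others, and the member values that moved most without them are given with and without them. The markers of lung tissue were present: all 12 genes of a lung list had counts, and Sftpc, Scgb1a1 and Ager were detected in 10 of 10 mice. Of these 12 only Cldn18, a tight junction protein, was called, lower on FO, against 1.57% of all genes with any count called lower. EdgeR called it over the genes with any count (unadjusted p = 0.00091) but not after the filter (unadjusted p = 0.102). That value rested on CO mouse 4: without it the log2 fold change of Cldn18 was 0.19 (edgeR unadjusted p = 0.518) in place of -0.93.

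Gpihbp1 could not be assessed. It was listed at 0 in all 10 mice, but so was every gene on its chromosome: of 705 protein-coding genes of chromosome 15 in the table, 705 had no count in any mouse, against 21.7% to 43.9% on the other chromosomes apart from Y. The deposited counts thus carried no signal from chromosome 15, and the 0 of Gpihbp1 is not a measure of its RNA. The same holds for Ppara, Dgat1, Lmf2 and Pnpla3, genes of the same pathway that lie on that chromosome. Why chromosome 15 is at 0 was not tested.

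The levels of the other 9 members fell into 3 tiers when set per length, as CPM per kb of the exons of protein-coding transcripts, with libraries scaled over all genes with any count. Fabp4 had 46.5 ± 30.03, Lpl 40.1 ± 18.4 and Cd36 29.3 ± 13.1 CPM per kb (SD over 10 mice). The order among these 3 was within their spread (two-sided exact sign-flip permutation test, p = 0.475 for Fabp4 against Lpl and p = 0.244 for Lpl against Cd36). Cd36 was higher than Fabp5, the next gene, in 10 of 10 mice, by 2.90 times (exact permutation p = 0.0020, the smallest that 10 mice allow, and 0.0078 after Benjamini-Hochberg adjustment over 8 neighbour tests).

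In the middle tier were Fabp5 with 10.1 ± 4.73, Plin2 with 10.1 ± 2.47 and Pnpla2 with 6.79 ± 2.80 CPM per kb. Fabp5 and Plin2 did not differ beyond their spread (exact permutation p = 0.979), and Plin2 exceeded Pnpla2 in 7 of 10 mice (exact permutation p = 0.027, adjusted 0.073). Pnpla2, the first lipase of triglyceride breakdown, was higher than Pparg in 10 of 10 mice, by 3.95 times (exact permutation p = 0.0020, adjusted 0.0078). Pparg, Lipe and Adipoq formed the lowest tier at 1.72 ± 1.98, 1.68 ± 1.33 and 1.60 ± 2.45 CPM per kb, with no difference beyond the spread between neighbours (exact permutation p = 0.979 and 0.883). Fabp5, from the same family as Fabp4, thus lay a tier below it on this scale.

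**Figure D1:**
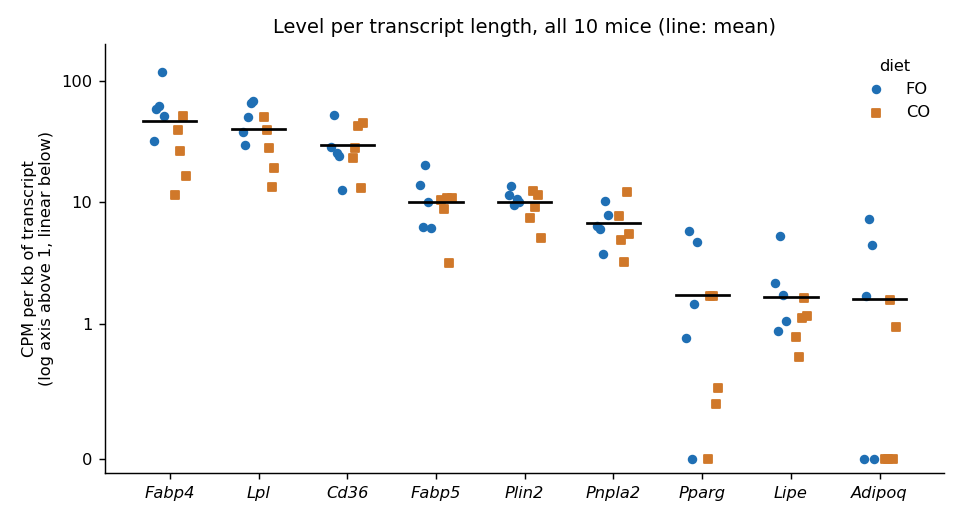
CPM per kb of protein-coding transcript (vertical axis, logarithmic above 1 and linear below) for 9 members in order of their mean, with 1 point per mouse (circles FO, squares CO) and a line at the mean of 10 mice. Fabp4, Lpl and Cd36 lie above Fabp5, Plin2 and Pnpla2, and Pparg, Lipe and Adipoq lie lowest, with mice at 0 for Pparg and Adipoq.

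For the comparison of the diets, edgeR's filter on low counts kept 2438 genes, among them 3 members, Fabp4, Lpl and Cd36. For the other 6 members with counts, values come from a second edgeR model over all 14161 genes that had a count. Each of these 6 had 113288 degrees of freedom there, against 18.4 for the 3 members after the filter. P-values, intervals and list calls of that second fit thus rest almost wholly on a spread pooled over genes. A mouse far from the others in 1 gene widens them little. At the study's threshold, an unadjusted p-value under 0.05, 1 of the 3 members was called, against 2.91% of the 2438 genes tested. In the fit of all genes with any count 3 of 9 members were called, against 4.15% of all genes, and these were the 3 picked for their patterns, so nothing is read from either count. After Benjamini-Hochberg adjustment 0 of 2438 genes and 1 of 14161 genes (0.00706%), no member, stayed under 0.05. Of the 6 members with counts that were not picked, edgeR called 0 at an unadjusted p-value under 0.05, as did DESeq2 and limma-voom. In 0 of the 9 members did the FO and CO groups not overlap, against 0.424% of all genes with any count and 0.410% of those tested after the filter. Among the 6 that were not picked, the log2 fold change was above 0 in 5, with a median of 0.33, where it was above 0 in 54.0% of all genes with any count, with a median of 0.05. With the 3 picked genes these were 8 of 9 and 0.60, from which nothing is read.

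**Figure D2:**
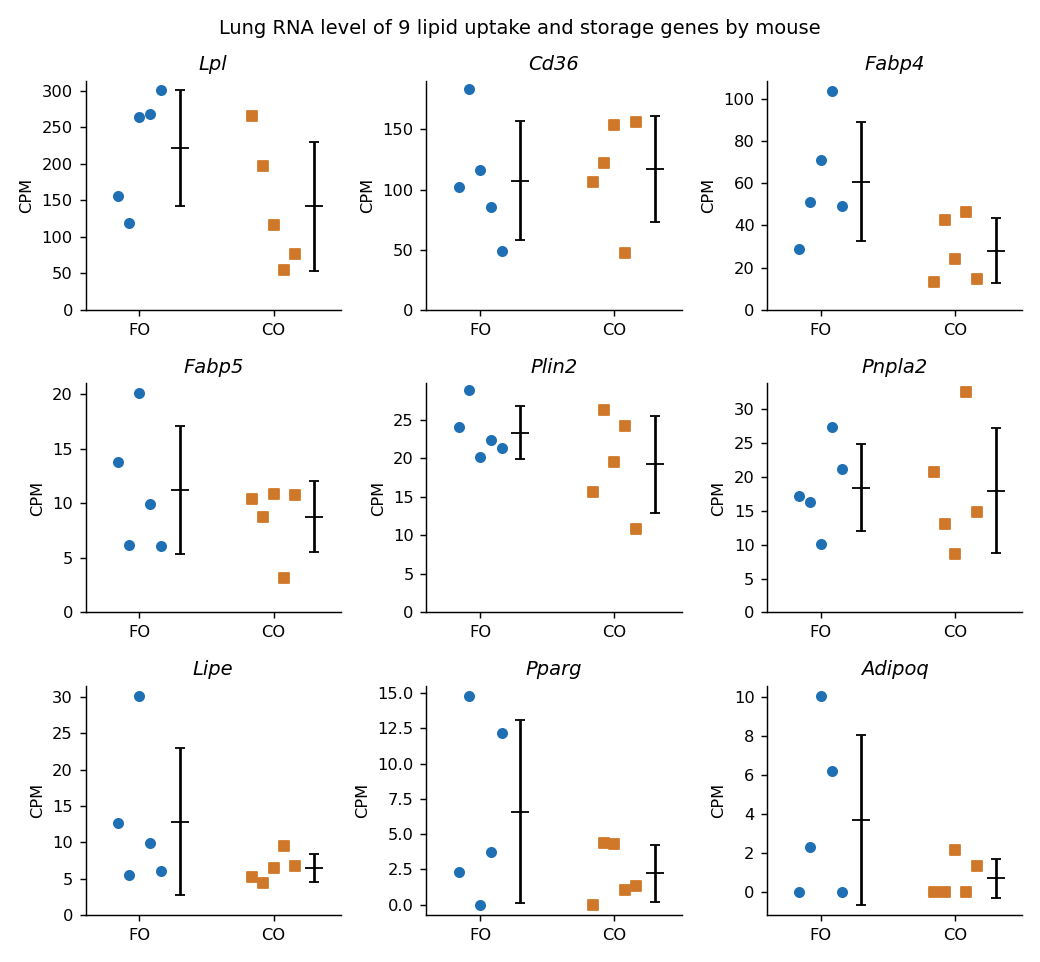
CPM (vertical axes, each from its own range) of 9 members in each of 5 FO mice (circles) and 5 CO mice (squares), mice 1 to 5 from left to right in each group, with the mean and SD beside them. Groups overlap in every panel, and Pparg and Adipoq include mice at 0.

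Lpl, the enzyme that frees fatty acids from circulating lipoproteins, gave the most reads of the members, 642 counts on FO and 240 on CO. FO mice 1 to 5 had 156, 119, 265, 268 and 301 CPM, and CO mice 1 to 5 had 266, 197, 116, 54.6 and 76.1 CPM. The groups overlapped: 5 of 5 FO mice were above the CO median but only FO mice 4 and 5 were above CO mouse 1. The means were 222 ± 79.2 CPM on FO and 142 ± 88.1 CPM on CO (SD, n = 5 each), a log2 fold change of 0.73 with a standard error (SE) of 0.38. Leaving out CO mouse 1, the highest of its group, gave 1.05, and leaving out CO mouse 4, the lowest, gave 0.50.

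The other genes around lipoprotein lipase were counted in a list of 22 genes (activators, inhibitors, maturation factors and lipoprotein receptors). Of these, 5 passed the filter and edgeR called 0 at an unadjusted p-value under 0.05, with 1.68% of all genes tested called higher and 1.23% lower. Apoe, an apolipoprotein ligand of lipoprotein receptors, had 36.4 ± 14.2 CPM on FO and 29.2 ± 21.2 on CO, and Lrp1, one of those receptors, 35.8 ± 15.2 and 28.8 ± 16.2 CPM (edgeR adjusted p = 0.998 for both). Among the 18 genes with any count the median log2 fold change was 0.13, and 1 was called lower, against 1.57% of all genes. It was Apoa5, which had 3 counts in 1 CO mouse and none elsewhere, at the floor. Angptl4, an inhibitor of Lpl and a target of the PPAR receptors, had 2, 6, 0, 6 and 0 counts in FO mice and 0, 0, 0, 3 and 1 in CO mice (log2 fold change 1.25, SE 0.94, edgeR adjusted p = 0.905).

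Cd36, the fatty acid receptor of capillary endothelium and macrophages, had a difference smaller than the spread among mice, with a wide interval. FO mice 1 to 5 had 102, 183, 116, 85.2 and 49.1 CPM, and CO mice 1 to 5 had 106, 123, 153, 47.2 and 156 CPM. The ranges were nearly the same, and FO mouse 2 and CO mouse 5, the Malat1-rich libraries, were the highest of their groups. The log2 fold change was -0.09 (SE 0.34, 95% interval -0.82 to 0.63, edgeR adjusted p = 0.998), and the two-sided exact permutation p over all assignments of mice to diets was 0.738. Without FO mouse 2 and CO mouse 5 it was -0.24.

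Of the 28 other genes of fatty acid uptake and activation (binding proteins, transporters, acyl-CoA synthetases, caveolar genes), 5 passed the filter and edgeR called 0 at an unadjusted p-value under 0.05. Dbi, the acyl-CoA binding protein, had 158 ± 20.4 CPM on FO and 155 ± 40.2 on CO. Acbd3, a Golgi protein with an acyl-CoA binding domain, had 111 ± 18.1 and 93.4 ± 22.9 CPM (edgeR adjusted p = 0.998 for each). Among 24 genes with any count, 1 was called higher, against 2.58% of all genes with any count. It was Fabp12, with 4 counts over 3 FO mice and none in CO mice, under the floor in each mouse. The median log2 fold change of the 24 genes was 0.13.

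The binding proteins Fabp4 and Fabp5 differed in their depth of coverage. Fabp4, the fatty acid binding protein of fat cells, macrophages and capillaries, had 28.8, 51.2, 71.0, 104 and 49.1 CPM in FO mice 1 to 5 and 13.3, 42.6, 24.1, 46.2 and 14.4 CPM in CO mice 1 to 5. On this scale 4 FO mice were above every CO mouse, and FO mouse 1 was within the CO range. Scaled over all genes with any count, FO mouse 5 was also within it (50.8 against 51.7 CPM per kb in CO mouse 4). Counts were 25, 67, 11, 84 and 15 in FO mice 1 to 5 and 2, 8, 11, 44 and 11 in CO mice, with CO mouse 1 under the floor. The means were 60.8 ± 28.3 and 28.1 ± 15.5 CPM, a log2 fold change of 1.05 with an SE of 0.40. It was 0.66 without FO mouse 4, the highest, and 1.45 without CO mouse 4.

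Fabp5, the epidermal-type binding protein from the same family, rested on 34 counts on FO and 20 on CO. FO mice ranged from 6.07 to 20.1 CPM and CO mice from 3.16 to 10.8 CPM, so the FO range covered most of the CO range. The log2 fold change was 0.32 (SE 0.58, 95% interval -0.81 to 1.45, edgeR adjusted p = 0.995, two-sided exact permutation p = 0.548).

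Pparg, the receptor, was near the limit of detection in most mice. Its counts were 2, 19, 0, 3 and 4 in FO mice 1 to 5 and 0, 1, 2, 1 and 1 in CO mice 1 to 5. Every CO mouse was at or under 3 counts, and FO mouse 2, a Malat1-rich library, held 19 of the 28 FO counts. The means were 6.59 ± 6.48 CPM and 2.22 ± 2.01 CPM, with a fitted log2 fold change of 1.76 (SE 0.81). From summed counts the ratio of FO to CO was 4.13, a description that pools the mice and leaves out the spread among them. The log2 fold change was 1.07 without FO mouse 2 and 0.88 without FO mouse 2 and CO mouse 5.

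A list of 36 partners, cofactors and targets of PPAR receptors held 35 genes with any count, of which 12 passed the filter. EdgeR called 0 of the 12 at an unadjusted p-value under 0.05. The stearoyl-CoA desaturase Scd2 had 230.2 ± 129 CPM on FO and 336 ± 119 on CO, and the corepressor Ncor1 had 250.5 ± 111 and 282 ± 94.0 CPM (edgeR adjusted p = 0.998 for both). The median over the 35 genes was 0.05 on the log2 scale, as over all genes with any count.

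**Figure D3:**
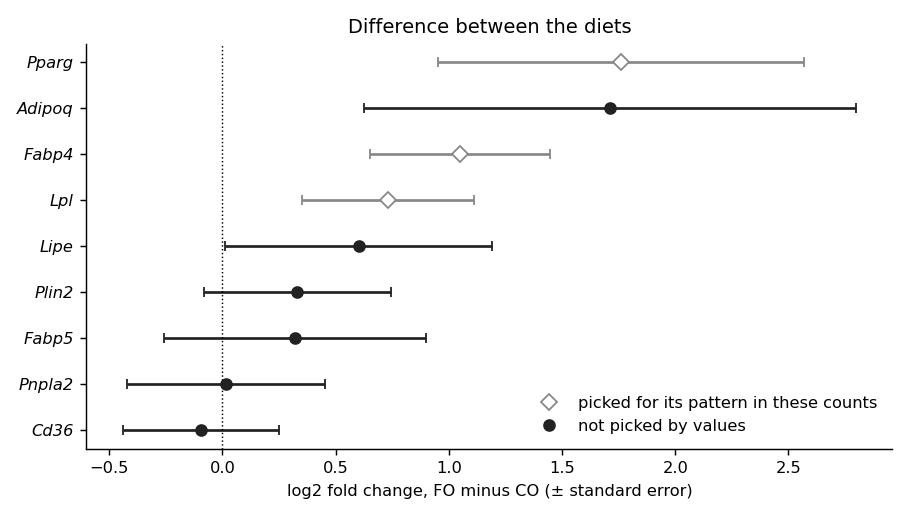
Log2 fold change, FO minus CO (horizontal axis), with its SE for 9 members, in order of size. Open diamonds are the 3 members picked for their patterns and filled circles the others, and the error bars of Cd36, Pnpla2, Fabp5 and Plin2 cross 0.

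Plin2, the coat protein of lipid droplets, had a narrow range of CPM among FO mice, but on few counts in some of them. It had 21, 37, 4, 18 and 7 counts in FO mice 1 to 5 and 3, 6, 9, 23 and 8 in CO mice 1 to 5. Its values were 24.0, 28.8, 20.1, 22.4 and 21.3 CPM in FO mice 1 to 5 and 15.6, 26.2, 19.5, 24.2 and 10.8 CPM in CO mice 1 to 5. All 5 FO mice were above the CO median of 19.5 CPM, and 1 was above every CO mouse. On the log2 scale the difference was 0.33 (SE 0.41, 95% interval -0.48 to 1.14, edgeR adjusted p = 0.965, two-sided exact permutation p = 0.230).

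The lipases of stored fat overlapped between the diets. Pnpla2, the adipose triglyceride lipase, had 67 counts on FO and 53 on CO, from 10.1 to 27.4 CPM and from 8.65 to 32.6 CPM. The FO range lay inside the CO range, and the log2 fold change was 0.01 (SE 0.44, 95% interval -0.84 to 0.87, exact permutation p = 0.817). Lipe, the hormone-sensitive lipase, ranged from 5.44 to 30.2 CPM in FO mice and from 4.36 to 9.47 CPM in CO mice. Its counts were few, 11, 7, 6, 8 and 2 in FO mice 1 to 5 and 1, 1, 3, 9 and 5 in CO mice 1 to 5. In this gene 3 FO mice were above every CO mouse and the other 2 were within the CO range, and the difference was 0.60 on the log2 scale (SE 0.59, 95% interval -0.55 to 1.76, edgeR adjusted p = 0.917, exact permutation p = 0.159). The antisense gene that overlaps Lipe had 8 counts in FO mice and 2 in CO mice.

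Among 36 other genes of droplet formation and lipolysis, 34 were in the table, 29 had a count and 5 passed the filter. EdgeR called 0 of the 5 at an unadjusted p-value under 0.05. Mgll, the monoglyceride lipase, had 69.8 ± 18.3 CPM on FO and 82.4 ± 19.9 on CO, and Hilpda, an inhibitor of Pnpla2, had 59.2 ± 28.2 and 45.3 ± 6.90 CPM (edgeR adjusted p = 0.998 for both). Of the 29 genes 1 was called higher, against 2.58% of all genes with any count. It was Fitm2, with 2 counts in each of 2 FO mice and none in CO mice, under the floor. The median log2 fold change was 0.13.

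Adipoq, the hormone of fat cells, had 0, 3, 2, 5 and 0 counts in FO mice 1 to 5 and 0, 0, 1, 0 and 1 in CO mice 1 to 5. In 5 of the 10 mice no count was found, and only FO mouse 4 exceeded 3 counts. The ratio of summed counts was 3.69 (exact 95% interval 0.787 to 34.6, counting error only), and edgeR gave a log2 fold change of 1.71 (SE 1.09, 95% interval -0.41 to 3.84, adjusted p = 0.905, exact permutation p = 0.206).

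Other markers of fat cells were also sparse. Leptin (Lep) was at 0 in 10 of 10 mice, and Plin1, the droplet coat of fat cells, had 6 counts in FO mice, 5 of them in FO mouse 4, and 1 in CO mice. Cfd (adipsin) was detected in 10 of 10 mice, with 20.2 ± 12.6 CPM on FO and 9.86 ± 2.23 on CO (log2 fold change 0.84, SE 0.50, edgeR adjusted p = 0.905). Without the members, the 18 genes of the adipocyte list with counts summed to 137 to 309 CPM in FO mice and 124 to 256 CPM in CO mice, with FO mouse 4 highest, and 0 of them were called by edgeR at an unadjusted p-value under 0.05 in the fit of genes with any count. The desaturase Scd1, also in the type 2 cell list, was the most abundant of them, with means of 94.5 CPM on FO and 136 CPM on CO in that fit. The log2 fold change was above 0 in 11 of the 18 genes, against 54.0% of all genes with any count. FO mouse 4 was also the highest mouse for Fabp4, and whether fat cells had a part in that value was not tested. The brown fat markers Ucp1 and Cidea had 3 and 2 counts in all 10 mice together, and Elovl3 had none. The 8 brown fat genes with counts summed to 10.1 to 24.3 CPM in FO mice and 4.33 to 24.2 CPM in CO mice, with 0 called by edgeR at an unadjusted p-value under 0.05.

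In whole lung, fewer cells of a type and less RNA per cell cannot be told apart, so the markers of the cells that make these transcripts were set beside them. The alveolar macrophage list without the members had 24 genes with counts, which summed to 444 to 815 CPM in FO mice (median 549) and 227 to 624 CPM in CO mice (median 388). In the fit of genes with any count 4 of the 24 were called, all higher on FO, against 2.58% of all genes called higher. The chemokine Ccl6 rose from 39.5 ± 8.71 to 69.4 ± 17.4 CPM with groups that did not overlap, and the lysosomal protease cathepsin D (Ctsd) from 41.5 ± 12.9 to 108 ± 117 CPM (log2 fold changes 0.79 and 1.14, edgeR adjusted p = 0.998). Ctsd had 316 CPM in FO mouse 3 and 46.0 to 68.8 CPM in the other FO mice, and without FO mouse 3 its FO mean was 55.8 ± 9.65 CPM, a log2 fold change of 0.37 that was not called (edgeR unadjusted p = 0.216). Ccl6 was called in each fit with 1 mouse left out, with log2 fold changes of 0.63 to 0.90. The others were Spp1 (osteopontin) and Cd68, a lysosomal protein of macrophages, with log2 fold changes of 1.30 and 2.00 (edgeR adjusted p = 0.905). Cd68 had 7, 6, 0, 2 and 3 counts in FO mice 1 to 5 and 0, 0, 1, 2 and 0 in CO mice, each CO mouse under the floor. Spp1 was 0.25 without FO mouse 4 (edgeR unadjusted p = 0.748) and Cd68 was 1.66 without FO mouse 2 and CO mouse 5 (unadjusted p = 0.110), neither of them called. The call was also lost without CO mouse 2 or 4 for Ctsd, without CO mouse 1, 2 or 5 for Spp1, and without FO mouse 1 or 5 or CO mouse 1 or 5 for Cd68.

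The defining markers of that list were mixed. Chil3 had 15.9 ± 5.59 CPM on FO and 18.5 ± 9.22 on CO, Marco had 18 counts in FO and 5 in CO mice, Ear1 and Ear2 had 5 and 1 counts in all, and Krt79 lies on chromosome 15 and could not be assessed. Without FO mouse 2 and CO mouse 5 the number called was 5, all higher, and without CO mouse 4 it was 3. The part of these cells in the values of Fabp4, Lpl and Pparg was not tested.

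The capillary endothelium list had nearly the same range on both diets. Its 35 genes with counts summed to 1147 to 2664 CPM in FO mice (median 1931) and 1177 to 2261 CPM in CO mice (median 1748), highest in FO mouse 2 and CO mouse 5. Pecam1, Cdh5, Cldn5, Kdr, Car4 and Ednrb were detected in 10 of 10 mice. Of 18 genes that passed the filter 1 was called, against 2.91% of all genes tested. It was Lyve1, a hyaluronan receptor best known from lymphatic vessels, which rose from 39.4 ± 6.89 to 58.5 ± 20.1 CPM (log2 fold change 0.62, SE 0.29, edgeR adjusted p = 0.998). EdgeR did not call Lyve1 when all genes with any count were fitted (unadjusted p = 0.056). Without FO mouse 2 the log2 fold change of Lyve1 was 0.36 and it was not called (edgeR unadjusted p = 0.224), nor was it without FO mouse 1 or 3 or CO mouse 1, 2, 4 or 5. The median log2 fold change of the 18 was 0.04. In the fit of all genes with any count 1 of 35 was called higher and 1 lower, against 2.58% and 1.57% of all genes. The higher one was Hpgd, a prostaglandin-degrading enzyme with 412 ± 236 CPM on FO and 284 ± 108 CPM on CO, which was not called among the genes passing the filter (edgeR unadjusted p = 0.132). Its log2 fold change was 0.62, and 0.27 without FO mouse 4 (unadjusted p = 0.372 by edgeR), and the call was also lost without FO mouse 5, CO mouse 3 or CO mouse 5. Ptprb, a phosphatase of endothelium, had 156 ± 142 and 188 ± 155 CPM, and 94.5 ± 39.9 and 121 ± 53.8 CPM without FO mouse 2 and CO mouse 5. The lower one, Aplnr, the apelin receptor, had 1 count in FO mice and 6 in CO mice, none above 3 in a mouse.

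Heart muscle also makes Lpl, Cd36 and Fabp3, and cardiac transcripts were present in these lungs. The 19 cardiac genes with counts summed to 115 to 439 CPM in FO mice and 46.7 to 264 CPM in CO mice, highest in FO mouse 2 and CO mouse 5. In the fit of genes with any count 4 of the 19 were called, all higher on FO, against 2.58% of all genes called higher. They were the giant sarcomere protein titin (Ttn), the myosin light chain Myl3 and the troponins Tnnt2 and Tnni3. Their log2 fold changes were 1.501, 2.80, 1.24 and 1.39 (edgeR adjusted p = 0.401, 0.401, 0.905 and 0.905). FO mouse 2 held 148 of the 177 FO counts of Ttn, and the log2 fold change of Ttn was -0.0016 without FO mouse 2 (edgeR unadjusted p = 0.998) and 1.09 without FO mouse 2 and CO mouse 5 (unadjusted p = 0.102). Myl3 had 26, 16, 1, 2 and 1 counts in FO mice 1 to 5 and 0, 0, 1, 0 and 3 in CO mice 1 to 5. Tnni3 had 55 counts on FO and 15 on CO. Without FO mouse 2 and CO mouse 5, Myl3, Tnnt2 and Tnni3 were called, with log2 fold changes of 3.98, 1.55 and 1.72. Myl3 then had 10.1 ± 13.2 CPM on FO, with most of the counts in FO mouse 1, and 0.54 ± 1.08 CPM on CO. Tnnt2 was 0.62 without FO mouse 2 alone (edgeR unadjusted p = 0.241) and not called without CO mouse 4. Myh6, the only cardiac gene that passed the filter, had 46.6 ± 46.6 and 33.3 ± 33.7 CPM, or 26.4 ± 12.5 and 19.95 ± 18.2 CPM without these mice, and Fabp3, the binding protein of heart, had 10.2 ± 7.29 and 7.17 ± 5.43 CPM. In FO mouse 2 and CO mouse 5, where the cardiac sum was highest, Cd36 was the highest of each group, at 183 and 156 CPM, and Lpl had 119 CPM, the lowest of the FO group, and 76.1 CPM. The capillary endothelium sum was also the highest of each group in these mice, at 2664 and 2261 CPM, as was the type 2 cell sum. The source of the cardiac transcripts and its part in the members' values were not tested.

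Lists for lipofibroblasts and type 2 cells completed the check. Lipofibroblasts, the lipid-storing fibroblasts of alveolar walls, had 16 genes with counts summing to 1150 to 1565 CPM in FO mice and 1007 to 1471 CPM in CO mice, 0 of them called by edgeR at an unadjusted p-value under 0.05. Inmt, a methyltransferase abundant in lung, had 560.0 ± 207 and 599.8 ± 276 CPM, and Limch1 373 ± 116 and 383 ± 160 CPM. In the list of type 2 cells, which make surfactant, the 18 genes summed to 2063 to 4282 CPM and 1372 to 3713 CPM with 0 called, and the surfactant protein genes Sftpc and Sftpa1 had 1157 ± 312 against 842 ± 373 CPM and 697 ± 252.4 against 557 ± 208 CPM. The sum was highest in FO mouse 2 and CO mouse 5, and without them it was 2063 to 2612 CPM in FO mice and 1372 to 2586 CPM in CO mice. Sftpc, not called with all mice (edgeR unadjusted p = 0.129), was 1029 ± 140.1 against 687 ± 161 CPM without these mice and was then called, with a log2 fold change of 0.58 (edgeR unadjusted p = 0.020).

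**Figure D4:**
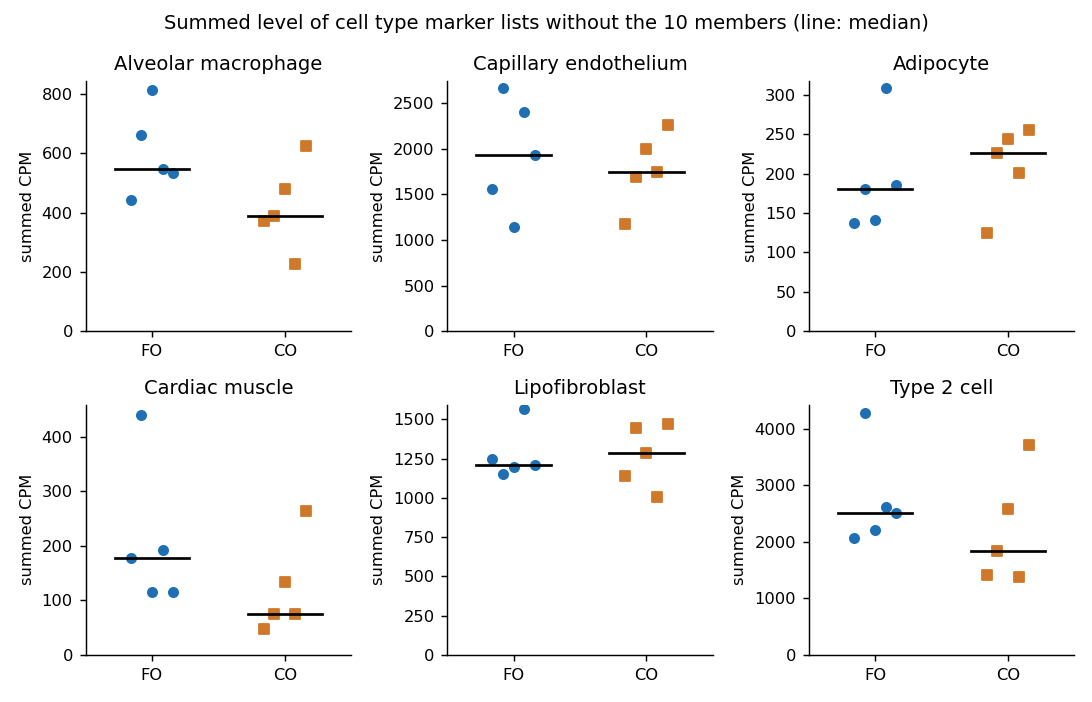
Summed CPM (vertical axes from 0) of 6 cell type marker lists, with the 10 members left out, in each FO mouse (circles) and CO mouse (squares), mice 1 to 5 from left to right and a line at the group's median. The medians of the alveolar macrophage, capillary endothelium, cardiac muscle and type 2 cell lists are higher on FO and those of the adipocyte and lipofibroblast lists lower, and the groups overlap in every panel. Scd1 is the most abundant gene of the adipocyte list and is also in the type 2 cell list.

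Whether Fabp4, Lpl and Cd36 moved together from mouse to mouse was asked within diets, after subtracting each diet's mean log2 CPM, since the diet difference had been used to pick 2 of them. Over 10 mice Pearson's r was -0.33 for Fabp4 and Cd36, -0.01 for Fabp4 and Lpl and -0.05 for Cd36 and Lpl (permutation p = 0.401, 0.978 and 0.899, each 0.978 after adjustment over the 3 pairs). Spearman's rho was -0.25, -0.05 and -0.26 (permutation p = 0.519, 0.901 and 0.504, with adjusted values of 0.778, 0.901 and 0.778). Without the 2 mice farthest from the median of the first gene, r was 0.065, 0.27 and -0.77. No relation between the 3 genes held up at this depth, and each value depended on a few mice.

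**Figure D5:**
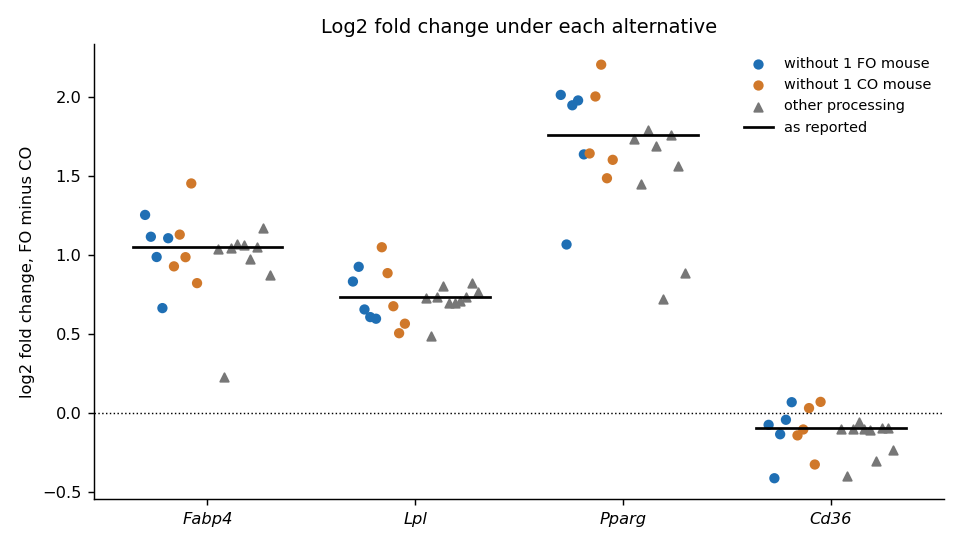
Log2 fold change, FO minus CO (vertical axis), of Fabp4, Lpl, Pparg and Cd36 as reported (lines), with each mouse left out in turn (circles, blue for FO and orange for CO) and under other processing (triangles). Fabp4, Lpl and Pparg stay above 0 in all of these, from 0.22 to 1.45, 0.49 to 1.05 and 0.72 to 2.21, and Cd36 lies on both sides of 0. Fabp4, Lpl and Pparg were picked for their patterns in these same counts, so nothing is read from their sign.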

How the data were processed

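Lung RNA of 10 mice was measured by RNA sequencing, with 1 library per mouse. Raw counts per gene symbol were deposited by the authors, who used STAR 2.4.0f1 on mm10, SAMtools 0.1.19 and htseq-count, and did not normalize them. The annotation and strand setting are not given in the sources used here, nor is which mouse had which library kit (TruSeq v2 or riboZero) or sequencer.

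Groups and replicate numbers came from the sample titles. Counts were fitted over the whole table by the quasi-likelihood test of edgeR 4.0.16 (R 4.3.3), after TMM scaling and the default filter on low counts (at least 10 in a library, 15 in total), and p-values were Benjamini-Hochberg adjusted over all genes tested. Members removed by the filter were read from the fit of all genes with any count. Log2 CPM used a prior count of 2. Single members were tested by exact permutation over all assignments of mice to diets, and correlations with 100000 permutations within diets. Intervals of log2 fold changes are 95%. The tests were checked on simulated data. Symbols were matched to RefSeq chromosomes for 93.7% of the table.

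The members and lists were chosen with earlier results of these data known. Named by rule are the members, the called genes of each list (at most 4), its 2 genes of highest level, Rn45s and Malat1. The other genes named, such as defining markers, genes at 0, Angptl4 and Fabp3, were chosen after their values were seen. Alternatives were RLE factors, library size alone, leaving out Rn45s, other filters, DESeq2 1.42.0, limma-voom (limma 3.58.1), robust estimation, a block for the replicate number, omission of single mice, and of FO mouse 2 and CO mouse 5 together. The counts of calls in lists without these 2 mice or without CO mouse 4, and the fits of single list genes without mice, were added after seeing the data. A result of the PPAR list is not reported here.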

Additional observations from a re-analysis of the deposited data

Results flagged for a closer look

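In 30 groups of 5 mice, formed by 9 members and 6 measures of the libraries within each diet, an extreme mouse lay far from its neighbour (Dixon's ratio over 0.71) in 5, where chance gives about 1.5. CO mouse 4 had 3.16 CPM of Fabp5, from 3 counts, and the nearest, CO mouse 2, had 8.73 CPM, from 2 counts. Both were at or under the floor. FO mouse 3 had 30.2 CPM of Lipe, from 6 counts, and the nearest FO mouse had 12.6 CPM. For Malat1 the share of non-Rn45s counts was 8.53% in FO mouse 2, with 0.928% in the nearest FO mouse, and 6.15% in CO mouse 5, with 1.05% in the nearest CO mouse. Small nucleolar RNA genes took 2.35% in FO mouse 2, against 0.452% in the nearest FO mouse.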

How the results depend on the processing

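The number of genes called, 71 of 2438, was 36 with library size alone (1 higher and 35 lower on FO, in place of 41 and 30), 587 of 14161 with any count, 15 of 633 with at least 10 counts in every mouse and 117 with limma-voom, and 54 to 154 without 1 mouse, the highest without FO mouse 2. The number of members called, 1 of 3, was 0 of 3 with library size alone, 3 of 9 with any count, 0 of 2 with at least 10 counts in every mouse, 2 of 3 with limma-voom and 2 of 3 without FO mouse 2 and CO mouse 5. Without 1 mouse it was 0 to 2: 0 without FO mouse 4 or CO mouse 5, and 2 without FO mouse 2, CO mouse 1 or CO mouse 2. For the 6 members with counts that were not picked, no alternative brought a p-value under 0.05, and the lowest was 0.059, for Adipoq. With library size alone the median of all genes moved to -0.55 (-0.43 with any count), and the log2 fold changes were 0.22 for Fabp4, -0.060 for Fabp5, -0.20 for Plin2 and -0.69 for Pnpla2. Relative to that median they were 0.78, 0.37, 0.22 and -0.27. Pnpla2, at 0.01, was -0.016 with RLE factors, -0.0070 with DESeq2, -0.0028 without FO mouse 2 and CO mouse 5 and -0.15 to 0.50 without 1 mouse, and Cd36, at -0.09, was -0.41 to 0.069 without 1 mouse. Pparg, at 1.76, was 0.72 with limma-voom. The cause of these changes was not tested. The correlation of Fabp4 and Cd36 was 0.065 without the 2 farthest mice and 0.28 with library size alone, that of Fabp4 and Lpl 0.31 without subtracting diet means, 0.27 without the 2 farthest mice and 0.25 with library size alone, and that of Cd36 and Lpl 0.38 without FO mouse 2 and CO mouse 5. Without 1 mouse, Cldn18 was -1.44 to 0.19, positive without CO mouse 4, and Ttn -0.0016 to 2.63, lowest without FO mouse 2. In the lists, among genes with any count, the number called without FO mouse 2 and CO mouse 5 went from 1 to 0 for fatty acid uptake and for the lipoprotein lipase genes, from 1 higher to 2 lower for storage, from 0 to 1 (higher) for brown fat and for type 2 cells, and from 1 to 2 for the lung list. Without CO mouse 4 it went from 1 to 0 for the lipoprotein lipase genes, from 1 to 2 for storage, from 0 to 1 higher for fat cells and from 0 to 1 lower for brown fat, and the lung list had 1 higher in place of 1 lower. These list counts and the fits of single list genes were chosen after seeing the data. Same-numbered mice are different animals and their deviations correlated at -0.12 on average (-0.41 to 0.03 over 5 pairs), so the numbers do not pair them. With the replicate number as a block, 55 genes and 1 of 3 members were called. Depth limits the rest: 6 of the 9 members with counts failed the filter, and Pparg and Adipoq rest on 33 and 12 counts in all.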

Other observations

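All 848 gene symbols of any kind that matched to chromosome 15 were at 0 in every mouse. Of the genes fixed in the lists, Lmf2, Dgat1, Pnpla3, Ppara, Gpd1, Letmd1, Acvrl1, Krt79, Enpp2 and Mb lie there, so a count of 0 for them does not describe the lung. Genes of the lists that were at 0 on other chromosomes were Fabp2, Fabp9, Acsl6, Lipc, Lmf1, Cideb, Mogat1, Mogat2, Lep, Elovl3, Zic1, Otop1 and Ear6.

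Scd1, the desaturase that makes monounsaturated fatty acids, had 98.7 ± 35.4 CPM on FO and 146 ± 48.2 CPM on CO, with edgeR giving -0.56 on the log2 scale (SE 0.28, adjusted p = 0.998), and Fasn, the fatty acid synthase, had 24.6 ± 13.4 and 28.8 ± 10.3 CPM. Neither was called at an unadjusted p-value under 0.05. The brown fat list had Pank1 and Dio2 as its most abundant genes, with 8.31 ± 6.51 against 5.61 ± 3.81 CPM and 4.21 ± 1.76 against 1.68 ± 2.30 CPM.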
